A study of Mus musculus with 132 samples.

Results

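The 10 genes described here are immediate early and early response genes of the mouse: Egr1, Egr2, Egr3, Nr4a1, Nr4a2, Nr4a3, Arc, Ier2, Ier3 and Klf4. They were chosen by symbol, and all 10 were found among the 23412 genes in the deposited table of normalized counts from tibial cortical bone. Of the 10, 8 passed a filter on low values, a normalized count of at least 10 in at least 4 libraries, and could be tested beside 13050 genes in all; Egr3 and Nr4a3 did not pass. The bone came from 22 female C57Bl/6J mice aged 10 weeks, whose left tibia received cyclic compression in vivo (9 N peak, 4 Hz, 1200 cycles daily), while the opposite tibia of the same animal was the control. Mice were killed 1 h (5 mice), 3 h (4 mice) or 24 h (4 mice) after a single bout, 24 h after the last of 7 daily bouts (4 mice, called 7d), or on day 8 of a schedule with 5 daily bouts (5 mice, called 5d). Each tibia gave 3 pieces of cortex, the metaphyseal shell, the proximal diaphysis and the mid-diaphysis, so that a mouse contributed 6 libraries of 3′ mRNA sequencing. Control limbs belonged to loaded animals, and no unloaded animal is among the samples.

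Immediate early genes are transcribed within minutes of a stimulus without need of new protein synthesis. Stretch, fluid flow, growth factors and calcium entry act on them through the MAP kinase cascade, which activates serum response factor with its Elk partners, and through protein kinase A, which activates CREB at cyclic AMP response elements. Most of their products are transcription factors, and several of their transcripts decay quickly because of unstable messages and feedback repressors. In bone, Egr1 and members of the Nr4a family are known to respond to loading, to fluid flow and to parathyroid hormone in osteoblasts and osteocytes.

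Library depth ranged from 290325 to 5410458 reads with a median of 1698310, and 3 reads corresponded to a normalized count between 0.706 and 17.4, with a median of 2.63. The depths given here include reads of the ribosomal RNA gene Rn45s, which held 0.136 to 60.8% of a library. Its median share was 3.02% in the shell, 5.57% in the proximal and 13.3% in the mid-diaphysis, so fewer reads were left for other genes there. The list of osteocyte and osteoblast markers held 0.646 to 43.3% of the reads of a library, so these markers were read in all of them. The share does not tell how much of a piece was bone. The list of skeletal muscle genes held 0.00980 to 11.5%. In 4 mid-diaphysis libraries the mesothelial marker Msln stood between 340 and 503, against at most 48.6 in the other 128. These 4 were the loaded limb of mouse 2 and the control limb of mouse 3 at 1 h, and the loaded limbs of mice 4 and 5 at 5d. Their osteocyte and osteoblast list held 0.873 to 2.11% of the reads, against a median of 10.8% and a lowest value of 0.646% in the other 128. Several of the 10 genes also lay outside their usual range there. Egr1 lay between 388 and 813 in these 4 and at a median of 38.6 in the other 40 mid-diaphysis libraries, whose highest value was 458. Ier2 lay between 173 and 246, against at most 86.6 in the other 40, and Ier3 between 457 and 642, against at most 182. Klf4 was low in them, at 52.5 to 68.9, and 38 of the other 40 were higher. For a value given without these libraries, a pair that holds 1 of them was left out, and an average then covers the segments left. Medians of control segments and values of genes outside the 10 include them.

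**Figure D1:**
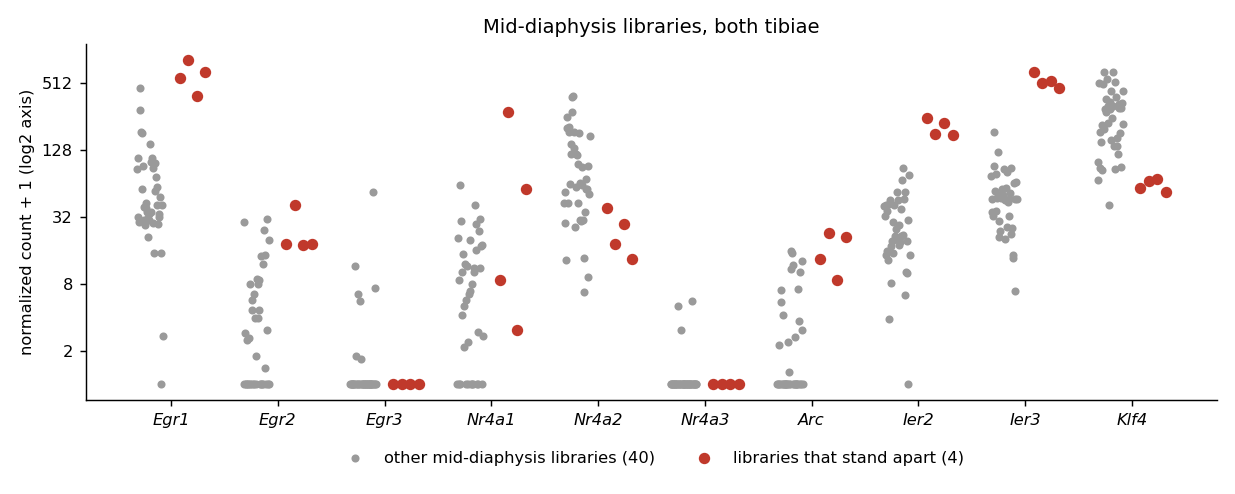
Normalized count plus 1, on a log2 axis, of the 10 genes in the 44 mid-diaphysis libraries of both tibiae; red points are the 4 libraries that stand apart and grey points the other 40. Egr1, Ier2 and Ier3 are high in the red points, Klf4 and Nr4a2 are low in them, and Egr3 and Nr4a3 are at 0.

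Egr1 is a zinc finger transcription factor on chromosome 18. Averaged over segments, it was higher in the loaded limb of every mouse 1 h after a single bout, as were Nr4a2 and Arc. Only the Egr1 difference passed in the main test, and that call changed with the processing. In the metaphyseal shell, control limbs of mice 1 to 5 stood at 98.3, 102, 87.3, 79.9 and 78.5 and loaded limbs at 158, 173, 188, 128 and 218. All 5 loaded values lay above all 5 control values, a separation found in 0.161% of 13048 genes in that segment. In the proximal diaphysis, control limbs stood at 36.2, 179.9, 144, 99.1 and 121.1 and loaded limbs at 507, 556, 493.5, 196 and 89.5. Mouse 5 was the exception there, with less Egr1 in its loaded limb. In the mid-diaphysis, control limbs stood at 84.4, 107.5, 568, 30.6 and 27.8 and loaded limbs at 287, 813, 458, 182 and 180.2. The 568 and the 813 are from libraries that stand apart, and mouse 3, with the 568 in its control limb, was the exception. Loaded limbs were thus higher in 13 of the 15 pairs.

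Averaged over the 3 segments of each limb, Egr1 was 123 ± 84.0 in control and 309 ± 149 in loaded limbs at 1 h (mean ± SD, n = 5 mice). The loaded limb was higher in 5 of 5 mice, and the groups overlapped through the control limb of mouse 3. The difference of loaded minus control on the log2(value + 1) scale, formed within each mouse and averaged over segments, was 1.46 ± 0.27 (estimate ± SE), with an adjusted p of 0.0364 by limma with Benjamini-Hochberg adjustment over 13050 genes. It was 1 of 2 genes called in that comparison, 0.0153% of those tested; the other was Fosb, of the AP-1 family. The size of the difference held within 1.41 and 1.47 over 10 alternative settings, while its adjusted p lay between 0.00823 and 0.999 and stayed under 0.05 in 3 of them. With edgeR's quasi-likelihood test on the recovered reads the difference was 1.42, with an adjusted p of 0.379. Leaving out 1 mouse at a time gave differences of 1.31 to 1.61, and the call was lost in 7 of 22 cases, without mouse 1, 2, 4 or 5 of the 1 h group or mouse 1, 2 or 3 of the 3 h group. Without the 4 libraries that stand apart, the difference was 1.46 ± 0.25, with an adjusted p of 0.0186 by limma.

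In this bulk tissue, fewer cells of a type and less RNA per cell cannot be told apart. At 1 h the muscle list held 0.309 to 0.537% of the reads of control limbs and 0.171 to 1.23% of loaded limbs, higher in the loaded limb of 3 of 5 mice. The osteocyte and osteoblast list held 6.64 to 15.8% in control and 6.46 to 17.02% in loaded limbs, higher in 4 of 5 mice. A further fit took as covariates the mean log2 values of the muscle and of the erythroid genes, loaded minus control, and not their shares of reads. In it the Egr1 difference was 1.44 and kept its call. The osteocyte and osteoblast list was not a covariate.

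Segment by segment, the fitted difference of Egr1 at 1 h was 0.93 ± 0.21 for the shell, 1.54 ± 0.51 for the proximal and 1.91 ± 0.63 for the mid-diaphysis. None of the 3 passed, the smallest adjusted p by limma being 0.623, in the shell. The mid-diaphysis value was 2.32 ± 0.76 without the 4 libraries. An F test of the difference between the segments did not pass (adjusted p = 1.00 by limma).

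**Figure D2:**
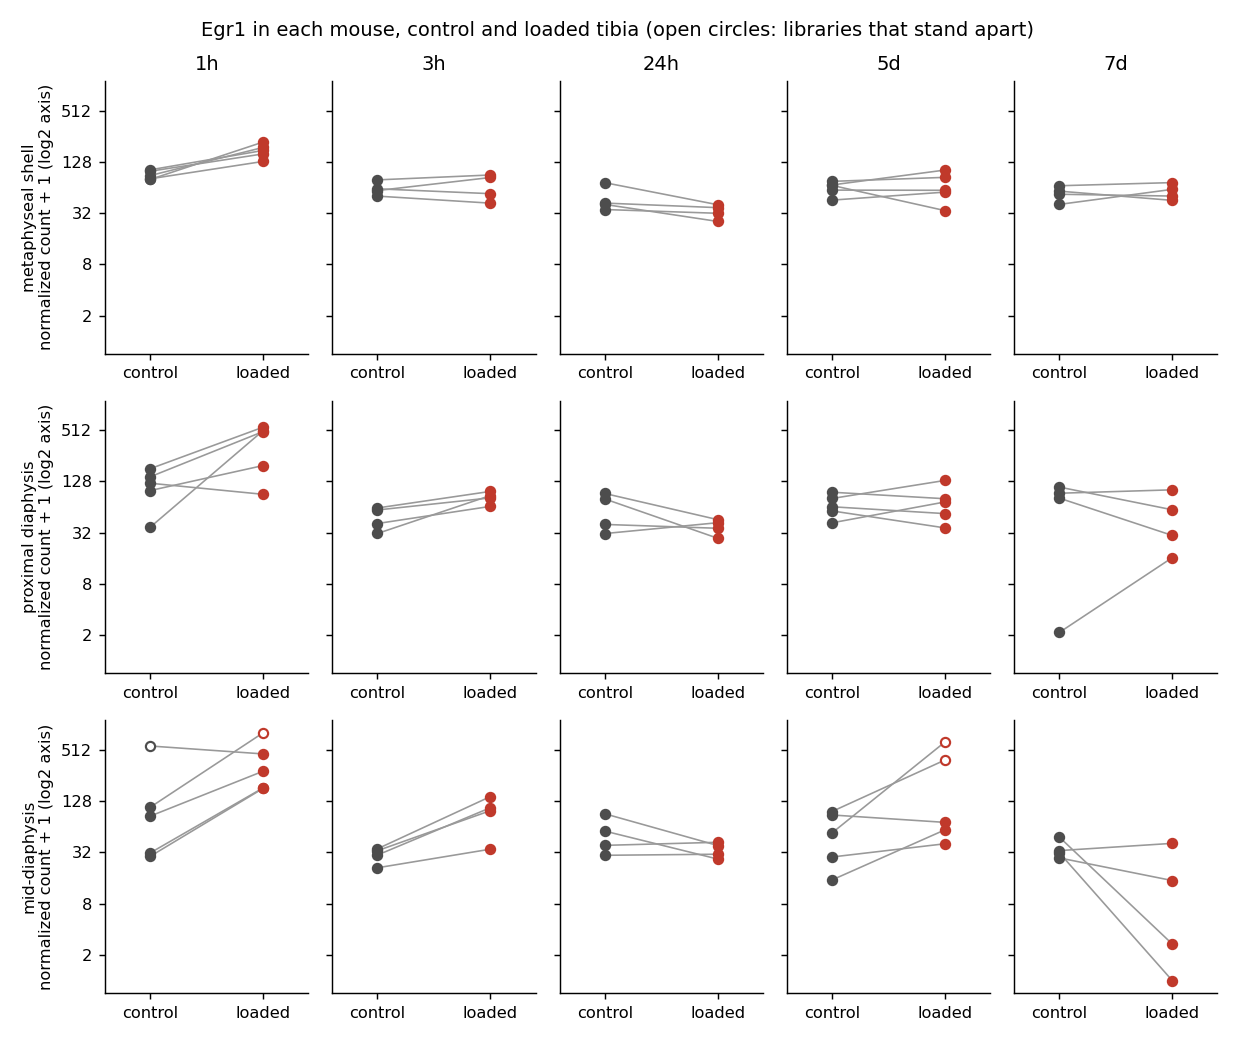
Egr1 normalized count plus 1, on a log2 axis, in the control and the loaded tibia of each mouse, joined by a line, for 3 segments in rows and 5 time groups in columns; open circles are libraries that stand apart. At 1 h 13 of 15 lines climb, at 24 h 3 of 12 do, and 2 loaded mid-diaphysis libraries at 7d lie at 0 and 1.69.

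At 3 h Egr1 was still higher in the loaded limb of all 4 mice, without passing the test. Limb means were 51.1, 45.9, 37.5 and 49.4 in control and 92.8, 62.3, 75.2 and 95.3 in loaded limbs of mice 1 to 4, with no overlap, which was also so for 5.95% of 13048 genes. The difference was 0.81 ± 0.30, with an adjusted p of 0.480 by limma, where 0% of the genes tested passed. Mid-diaphysis values were 34.3, 20.1, 32.5 and 28.8 in control and 144, 33.9, 98.1 and 106.3 in loaded limbs, whereas those of the shell were 60.7, 77.6, 49.6 and 57.9 in control and 53.1, 88.7, 40.9 and 82.8 in loaded limbs. The fitted mid-diaphysis difference was 1.54 ± 0.70 (adjusted p = 1.00 by limma), and the F test between segments at 3 h did not pass (adjusted p = 1.00).

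At 24 h after a single bout the sign was the opposite, with limb means of 56.4, 84.5, 35.8 and 36.2 in control and 27.7, 40.4, 35.5 and 33.5 in loaded limbs. All 4 mice were lower in the loaded limb, mice 3 and 4 by little, and the difference was -0.53 ± 0.30 (adjusted p = 1.00 by limma). At 5d the limb means were 65.02, 50.2, 40.8, 83.3 and 68.8 in control and 59.7, 36.0, 77.3, 201 and 257 in loaded limbs. The high values of mice 4 and 5 include their mid-diaphysis libraries, at 388 and 633, which stand apart. The 5d difference was 0.54 ± 0.27 (adjusted p = 0.838 by limma), and 0.19 ± 0.25 without those libraries.

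After 7 daily bouts Egr1 was again not higher in loaded limbs. Limb means were 67.2, 23.8, 59.0 and 61.7 in control and 48.2, 25.03, 63.6 and 24.9 in loaded limbs, and the difference was -0.73 ± 0.30 (adjusted p = 0.303 by limma). In the mid-diaphysis, control limbs stood at 26.6, 30.7, 32.6 and 47.5 and loaded limbs at 13.9, 0, 39.9 and 1.69. The 0 is a library of 1847248 reads in which 3 reads would be worth 2.97, and the 1.69 is a single read. The library with the 0 was also at 0 for Egr2, Nr4a1 and Ier2, and no other library was at 0 for Ier2. Arc had 12 reads in it. The fitted mid-diaphysis difference of Egr1 was -2.44 ± 0.70, with an adjusted p of 0.372 by limma. It passed in 1 fit of all libraries together, with an adjusted p of 0.0273 by limma. That fit uses a spread shared by all segments, which understates the spread of a segment that varies more than the rest. The share of all genes passing in it is not given here. The F test between segments at 7d gave an adjusted p of 0.151 by limma, where 0.107% of the genes passed.

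The Egr1 response differed between the 5 times by limma's F test, with an adjusted p of 0.0384; 6 genes, 0.046% of those tested, passed it. Over 8 alternatives the adjusted p lay between 0.0225 and 0.577, under 0.05 in 5, and with edgeR it was 0.577. When 1 mouse was left out at a time it lay between 0.0147 and 0.124, and the call held in 8 of 22 cases. It was lost without mouse 1, 2, 4 or 5 of the 1 h group, mouse 1, 3 or 4 of the 3 h group, mouse 1 or 2 of the 24 h group, mouse 4 or 5 of the 5d group and mouse 1, 2 or 4 of the 7d group. The direct contrast of 1 h against 24 h was 1.99 ± 0.40 on the log2 scale, with an adjusted p of 0.159 by limma; 0.00766% of the genes passed that contrast. It was 1.99 ± 0.38 without the 4 libraries (adjusted p = 0.0826 by limma).

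Egr2, a paralogue of Egr1 on chromosome 10, was much sparser, with 660 reads in all and none in 27 libraries. At 5d its limb means were 2.09, 1.22, 2.42, 6.09 and 1.17 in control and 4.40, 2.38, 10.6, 9.70 and 7.85 in loaded limbs. It was higher in the loaded limb of 5 of 5 mice, with overlapping groups, and the difference of 1.02 ± 0.48 did not pass (adjusted p = 0.836 by limma). Without the 4 libraries that stand apart it was 0.82. At 1 h the per-mouse differences ran from -1.76 to 2.57, with 3 of 5 mice higher. The 2.57 is from mouse 2, whose loaded mid-diaphysis library stands apart; without the 4 libraries the highest was 1.37 and 4 of 5 mice were higher. In the shell at 1 h the fitted difference was 0.97 ± 0.41 (adjusted p = 1.00 by limma). Egr3, on chromosome 14, had reads in 25 libraries, and its highest value was 51.8, in the mid-diaphysis of the control limb of mouse 3 at 7d. It was at 0 in all others, so no difference was detectable at this depth.

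The Nr4a genes encode orphan nuclear receptors that bind DNA without a classical ligand and are induced through cyclic AMP and CREB in many cell types. A CREB half-site, TGACG on either strand, was searched in the 250 bases before each RefSeq start site on build GRCm38.p6, together with the CArG box, the element bound by serum response factor. Windows were held for 6 of the 10 genes, Egr2, Nr4a1, Nr4a2, Nr4a3, Ier3 and Klf4; Egr1, Egr3, Arc and Ier2 are named only. The windows of Nr4a1 and Nr4a2, the 2 Nr4a genes with enough reads for a test, and 1 of the Egr2 windows are shown as examples of windows that hold these motifs; none of the 3 overlaps an annotated exon. Capitals mark TGACG or its complement CGTCA and, in Egr2, the CArG box, and no motif overlaps another.
Nr4a1, chr15:101266596-101266845, plus strand: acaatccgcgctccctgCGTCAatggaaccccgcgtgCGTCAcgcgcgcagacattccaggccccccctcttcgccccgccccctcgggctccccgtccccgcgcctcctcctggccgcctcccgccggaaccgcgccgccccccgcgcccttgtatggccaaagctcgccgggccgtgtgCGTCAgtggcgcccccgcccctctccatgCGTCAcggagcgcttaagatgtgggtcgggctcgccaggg
Nr4a2, chr2:57124004-57124253, minus strand: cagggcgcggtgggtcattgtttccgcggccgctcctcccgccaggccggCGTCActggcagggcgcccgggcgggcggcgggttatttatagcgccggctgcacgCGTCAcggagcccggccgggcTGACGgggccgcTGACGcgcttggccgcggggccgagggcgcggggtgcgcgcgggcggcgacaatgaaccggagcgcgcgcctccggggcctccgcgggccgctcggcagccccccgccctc
Egr2, chr10:67537619-67537868, plus strand: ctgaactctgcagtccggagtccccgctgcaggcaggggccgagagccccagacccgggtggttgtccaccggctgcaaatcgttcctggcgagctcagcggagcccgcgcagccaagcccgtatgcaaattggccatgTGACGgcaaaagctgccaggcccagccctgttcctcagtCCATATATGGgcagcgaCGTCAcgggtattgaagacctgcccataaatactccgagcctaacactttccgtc

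The Nr4a1 window holds 4 TGACG matches, starting 233, 213, 69 and 40 bases before the start site, and no CArG box. The Nr4a2 window holds 4, the farthest 200 bases before it, and the Nr4a3 window also holds 4. At least 4 matches were found in 45 of 32536 distinct RefSeq windows of the same length, 0.138%, and at least 1 in 17.9%. The Egr2 window shown holds 2 TGACG matches and a CArG box at 72 bases, a motif found in 1.48% of windows. Egr2 has 5 windows, several overlapping, which hold 0, 0, 2, 2 and 2 TGACG matches, and 4 of them hold a CArG box. Klf4 had 1 TGACG match and Ier3 had 0. A match describes letters in the window and no measured binding.

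Nr4a1, on chromosome 15, was higher in the loaded limb of 4 of 5 mice at 1 h. Limb means were 4.65, 16.03, 22.98, 20.9 and 31.6 in control and 23.04, 128, 61.3, 39.6 and 24.1 in loaded limbs. Mouse 2 was highest through its loaded mid-diaphysis library at 280.2, which stands apart, mouse 5 was lower, and the groups overlapped. The difference was 1.23 ± 0.54 with an adjusted p of 0.999 by limma, and 0.91 ± 0.63 without the 4 libraries. At the other times the signs were mixed within each group of mice, with per-mouse values from -2.39 to 2.09, and the contrast of 1 h against 24 h was 1.66 ± 0.81 (adjusted p = 1.00 by limma), or 1.34 ± 0.94 without the 4 libraries.

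Nr4a2, on chromosome 2, had more reads, 13750 in 130 libraries. At 1 h its limb means were 83.2, 76.2, 67.8, 45.4 and 52.4 in control and 166, 143, 185, 69.4 and 89.6 in loaded limbs. The loaded limb was higher in 5 of 5 mice, with overlap through mouse 4, and the difference of 0.81 ± 0.31 did not pass (adjusted p = 0.999 by limma) and was 0.82 without the 4 libraries. The fitted mid-diaphysis difference was 1.60 ± 0.58, and 2.08 without the libraries that stand apart, with an adjusted p of 1.00 in all libraries.

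Nr4a2 was higher in the loaded limb of every mouse at 24 h as well, when Egr1 was lower in every mouse. Limb means were 166, 93.5, 107.4 and 120.5 in control and 318, 193, 183 and 179 in loaded limbs, with no overlap, as in 2.04% of 13048 genes. The mid-diaphysis showed the widest gap, at 182, 62.3, 116.6 and 143 in control and 379, 277, 388 and 183 in loaded limbs, every loaded value above every control value, as in 2.01% of 13048 genes. The average difference at 24 h was 0.71 ± 0.34 (adjusted p = 1.00 by limma). At 5d the per-mouse log2 average was negative in 4 of 5 mice and positive in mouse 1. Limb means were 46.9, 72.6, 30.1, 103 and 97.4 in control and 54.7, 38.4, 30.9, 43.4 and 38.4 in loaded limbs, slightly higher in the loaded limb of mice 1 and 3. The difference of -0.89 ± 0.31 did not pass (adjusted p = 0.546 by limma), was -0.81 without the 4 libraries, and was widest in the mid-diaphysis at -1.65 ± 0.58, or -1.46 ± 0.73 without them. The F test over the 5 times gave an adjusted p of 0.416 by limma. Nr4a3, on chromosome 4, had 21 reads in 6 libraries and none of them at 1 h, with a highest value of 4.62, so its response was not detectable at this depth.

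Arc encodes a capsid-like protein best known from neurons, where it is a standard marker of recent activity. In cortical bone it was near the limit of detection, with 316 reads and 69 libraries above 0. At 1 h its limb means were 0.273, 1.64, 4.10, 1.94 and 1.07 in control and 0.939, 9.22, 6.37, 6.75 and 3.05 in loaded limbs. The loaded limb was higher in 5 of 5 mice and the groups overlapped. The difference was 1.16 ± 0.40 (adjusted p = 0.999 by limma), and 1.14 without the libraries that stand apart. In the shell, the loaded values of 2.82, 4.30, 3.76, 3.23 and 5.89 all lay above the control values of 0.819, 2.27, 0, 1.19 and 1.94, as in 0.161% of 13048 genes, but each rests on at most 8 reads.

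At 3 h Arc had limb means of 0.821, 0.695, 0 and 1.46 in control and 4.65, 5.13, 5.47 and 4.40 in loaded limbs, with no overlap, as in 5.95% of 13048 genes. The average difference was 1.24 ± 0.44 (adjusted p = 0.459 by limma). In the shell, control limbs stood at 1.09, 0, 0 and 0.471 and loaded limbs at 0, 0, 0.704 and 0. In the proximal diaphysis, control limbs stood at 0, 1.79, 0 and 3.91 and loaded limbs at 4.23, 0.643, 1.70 and 2.42. Only in the mid-diaphysis did the groups not overlap. There control limbs stood at 1.37, 0.291, 0 and 0 and loaded limbs at 9.73, 14.7, 14.01 and 10.8. The loaded libraries held 5, 10, 6 and 7 reads and the control libraries 2, 1, 0 and 0, so every loaded value stood above every control value, as in 2.48% of 13048 genes. The fitted difference was 3.31 ± 0.94 with an adjusted p of 1.00 by limma. It passed in 1 fit of all libraries together, with an adjusted p of 0.0319 by limma. In that fit the spread is shared by all segments, and the share of all genes passing is not given here. The F test between segments at 3 h gave an adjusted p of 1.00 by limma. In the shell at 7d the sign was negative, at -1.05 ± 0.48 (adjusted p = 0.650 by limma), and the F test over times gave an adjusted p of 0.651.

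Ier2 and Ier3 are immediate early response genes without a shared protein fold; Ier3 acts in cell survival and in ERK signalling. At 1 h their signs were mixed between mice, with per-mouse averages from -1.12 to 0.98 for Ier2 and from -0.79 to 1.10 for Ier3. The -1.12 is from mouse 3 and the 0.98 and the 1.10 from mouse 2, each with a mid-diaphysis library that stands apart. Without the 4 libraries the averages ran from -0.82 to 0.25 for Ier2 and from -0.79 to 0.93 for Ier3, and the signs were still mixed. Ier2, on chromosome 8, was higher in the loaded limb of 5 of 5 mice at 5d. Limb means were 16.5, 22.2, 23.2, 31.4 and 23.1 in control and 43.4, 25.8, 38.4, 135 and 71.7 in loaded limbs. Mouse 2 had the smallest gap and mice 4 and 5 the largest loaded values, and the groups overlapped. The difference was 0.93 ± 0.35 (adjusted p = 0.631 by limma). It was 0.75 without the libraries that stand apart, with 4 of 5 mice higher and mouse 5 lower. Mid-diaphysis values were 18.1, 36.3, 20.3, 67.7 and 20.9 in control and 86.6, 44.8, 52.1, 221 and 173 in loaded limbs, the last 2 from such libraries.

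Ier3, on chromosome 17, shows how far those libraries can set a value. At 5d its mid-diaphysis values were 79.8, 24.98, 42.5, 31.4 and 45.5 in control and 51.1, 21.5, 86.9, 528 and 457 in loaded limbs. Mice 1 and 2 were lower in the loaded limb, mouse 3 was higher, and mice 4 and 5 were higher by far. The fitted difference of 1.50 ± 0.72 (adjusted p = 0.591 by limma) became 0.06 without them. At 24 h Ier3 was lower in the loaded limb of 4 of 4 mice, with per-mouse averages from -0.81 to -0.13 and overlapping groups.

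Klf4, on chromosome 4, encodes a zinc finger factor known to respond to shear stress in endothelium and to act in osteoblast differentiation. It was the member with the most reads, 49649, with reads in every library. At 3 h its limb means were 283, 262, 281 and 227 in control and 412, 294, 349.7 and 779 in loaded limbs. Every loaded limb stood above every control limb, as in 5.95% of 13048 genes, and mouse 4 was far above the rest. The difference of 1.07 ± 0.31 did not pass (adjusted p = 0.393 by limma), against an all-gene median of 0.08. In the proximal diaphysis at 3 h, control limbs stood at 259, 448, 10.1 and 98.2 and loaded limbs at 481, 374, 314 and 298. The fitted value of 1.76 ± 0.59 (adjusted p = 0.452 by limma) includes the control limb of mouse 3, at 10.1. That library has 363663 reads, the fewest in the proximal diaphysis, and 3 reads are worth 10.1 in it. The median of all genes for this segment and time was 0.34. Without mouse 3 the fitted value of Klf4 was 0.74.

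At 5d Klf4 had limb means of 518, 237, 149, 604 and 356 in control and 208, 184, 143, 158 and 285 in loaded limbs. By the per-mouse log2 average, 4 of 5 mice had less in the loaded limb, and 3 of 5 without the 4 libraries. The difference was -0.86 ± 0.28 (adjusted p = 0.518 by limma) and -0.59 without the 4 libraries, and in the mid-diaphysis -1.24 ± 0.53, which became -0.16 without them. At 7d limb means were 247, 285, 215 and 295 in control and 124.6, 205, 173 and 282 in loaded limbs, lower in 4 of 4 mice with overlap. In the proximal diaphysis at 7d the groups did not overlap, at 270.2, 347, 241 and 275 in control and 146, 102, 162 and 189 in loaded limbs; 1.76% of 13048 genes lay wholly below there, where the median of all genes was 0.29. The contrast of 24 h against 7d, both 24 h after a last bout, was 1.09 ± 0.44 (adjusted p = 0.510 by limma). The F test over times gave an adjusted p of 0.175 by limma. In the shell at 24 h the fitted difference was 1.12 ± 0.54 (adjusted p = 1.00 by limma).

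**Figure D3:**
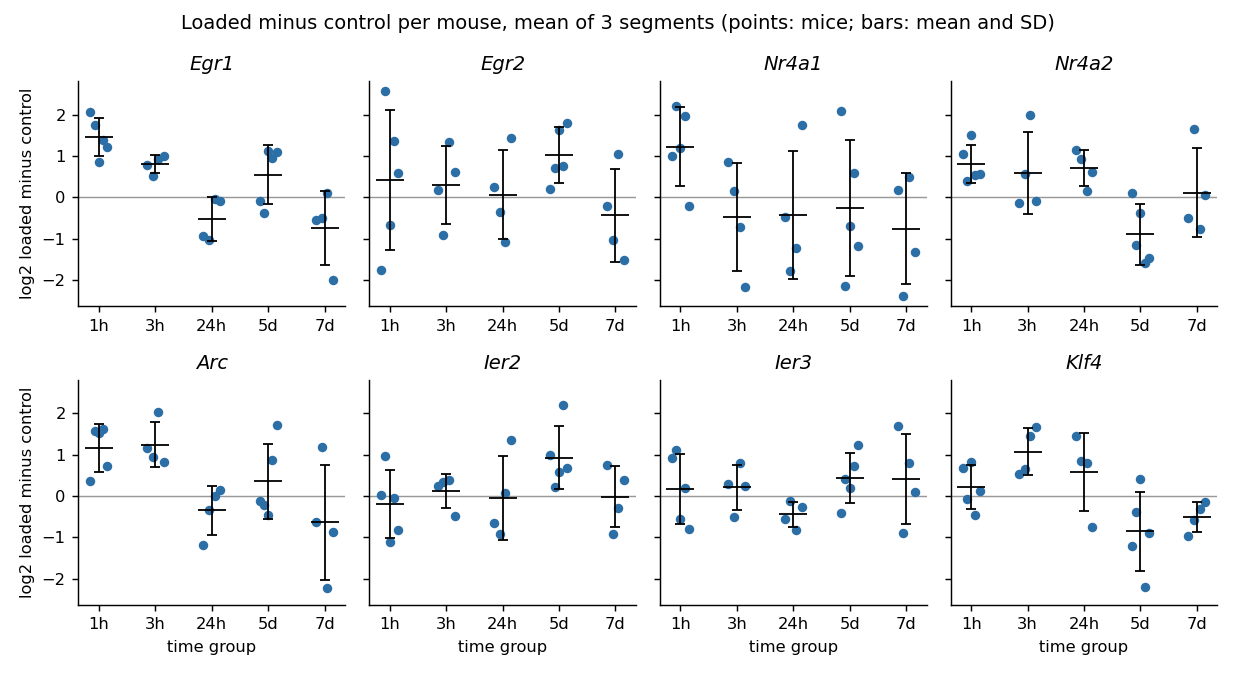
Log2 loaded minus control of 8 genes in each time group, averaged over the 3 segments of each mouse; points are mice, and bars are the mean and SD of 4 or 5 mice. Egr1 and Arc lie above 0 in every mouse at 1 h and 3 h, Nr4a2 at 1 h and 24 h, and Klf4 above 0 at 3 h and below 0 at 7d.

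Of the 8 genes tested on the average over segments, 7 had a positive difference at 1 h, 7 at 3 h, 3 at 24 h, 5 at 5d and 2 at 7d. The median of the 8 was 0.61 at 1 h, 0.44 at 3 h, -0.20 at 24 h, 0.40 at 5d and -0.47 at 7d, while the median of all genes tested was -0.05, 0.08, -0.02, 0.02 and 0.12. Without the 4 libraries that stand apart, 7 were positive at 1 h and 4 at 5d, and the median of the 8 was 0.59 at 1 h and -0.05 at 5d, so the positive median at 5d rested on them. With limma, 1 of 8 passed at 1 h and 0 of 8 at each later time, where 0%, 0.00766%, 0.0383% and 0.123% of all genes passed at 3 h, 24 h, 5d and 7d. At an unadjusted p under 0.05 there were 4 members at 1 h (Egr1, Nr4a1, Nr4a2 and Arc), 3 at 3 h (Egr1, Arc and Klf4), 1 at 24 h (Nr4a2), 4 at 5d (Egr2, Nr4a2, Ier2 and Klf4) and 1 at 7d (Egr1). The same unadjusted threshold was met by 3.72%, 8.53%, 3.2%, 5.89% and 12.2% of all genes. With edgeR, 0 of 8 passed at each of the 5 times.

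In single segments 0 of 120 tests of a member passed with limma and 0 with edgeR, and 17 and 14 were under an unadjusted p of 0.05. The share of all genes under that unadjusted threshold is not given here, so the 17 and 14 have no background to be read against. Of all genes, 0.00766% passed in the shell at 5d and at 7d and in the proximal diaphysis at 1 h, and 0% in the other 12. The F tests for a difference between segments called 0 of 8 members at each time by limma, with 3 of 40 under an unadjusted p of 0.05. The share of all genes passing was 0% at the first 4 times and 0.107% at 7d. For the unadjusted threshold it is not given here.

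**Figure D4:**
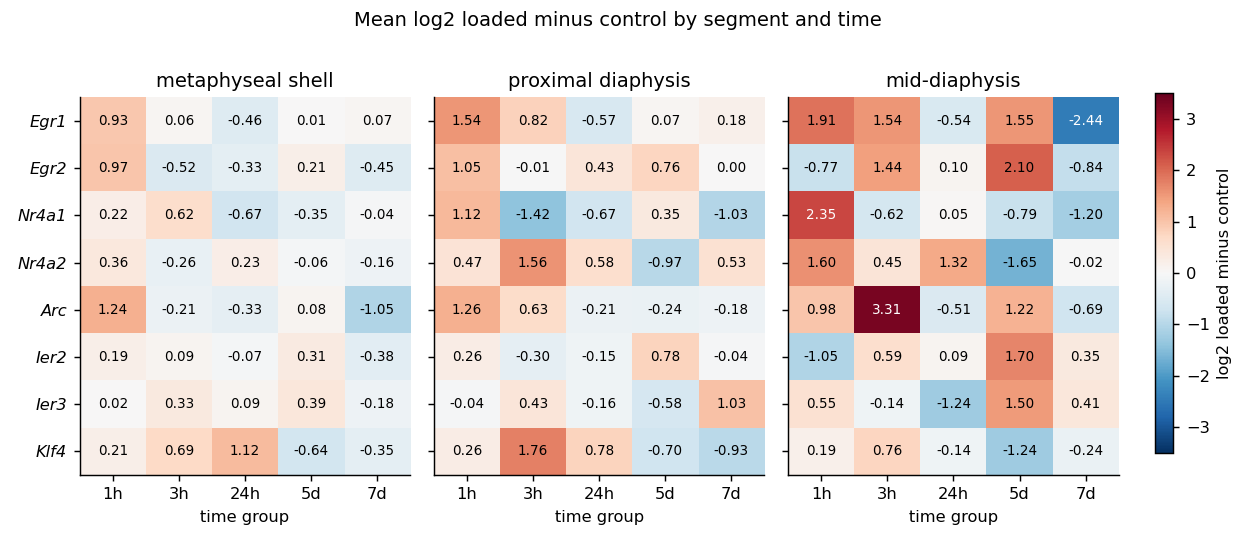
Mean log2 loaded minus control of 8 genes in each segment (panels) and time group (columns), printed in each cell, with red for higher and blue for lower in loaded limbs. The mid-diaphysis holds the extremes, 3.31 for Arc at 3 h and -2.44 for Egr1 at 7d, and its 1 h and 5d columns include the libraries that stand apart.

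Control limbs of the 22 mice gave the levels of each gene along the bone. Median Egr1 was 63.4 in the shell, 71.2 in the proximal and 33.4 in the mid-diaphysis. The shell exceeded the mid-diaphysis in 16 of 22 mice, the proximal exceeded the mid-diaphysis in 15, and the shell exceeded the proximal diaphysis in 9. None of these 3 differences passed; shell minus mid-diaphysis had an adjusted p of 0.268 by limma. Without the 4 libraries it was 0.0682, and after upper-quartile scaling it was 0.0140, with Nr4a2 at 0.0273.

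Medians in the shell, the proximal and the mid-diaphysis were 75.5, 95.8 and 56.99 for Nr4a2. For Ier3 they were 55.4, 59.4 and 45.9, and for Klf4 298, 264 and 299. Nr4a1 had medians of 4.25, 9.02 and 7.596, and its shell minus proximal difference was -0.86 ± 0.34 (adjusted p = 0.115 by limma). Ier2 had medians of 17.2, 24.99 and 20.3, and its shell minus proximal difference was -0.55 ± 0.18, close to the threshold (adjusted p = 0.0616 by limma). With a pseudocount of 5, both passed, at 0.0490 for Nr4a1 and 0.0480 for Ier2. Egr2 had medians of 2.60, 2.30 and 1.18 and Arc of 0.569, 0.288 and 0, near what a few reads are worth, and Egr3 and Nr4a3 had a median of 0 in every segment.

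With limma, 0 of 8 members passed in each of the 3 pairs of segments, with 2 of 24 tests under an unadjusted p of 0.05, and edgeR called 0. Of all genes 7.36% passed between shell and mid-diaphysis, 6.46% between shell and proximal diaphysis and 0.207% between the 2 diaphyseal pieces. The shares under the unadjusted threshold are not given here.

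**Figure D5:**
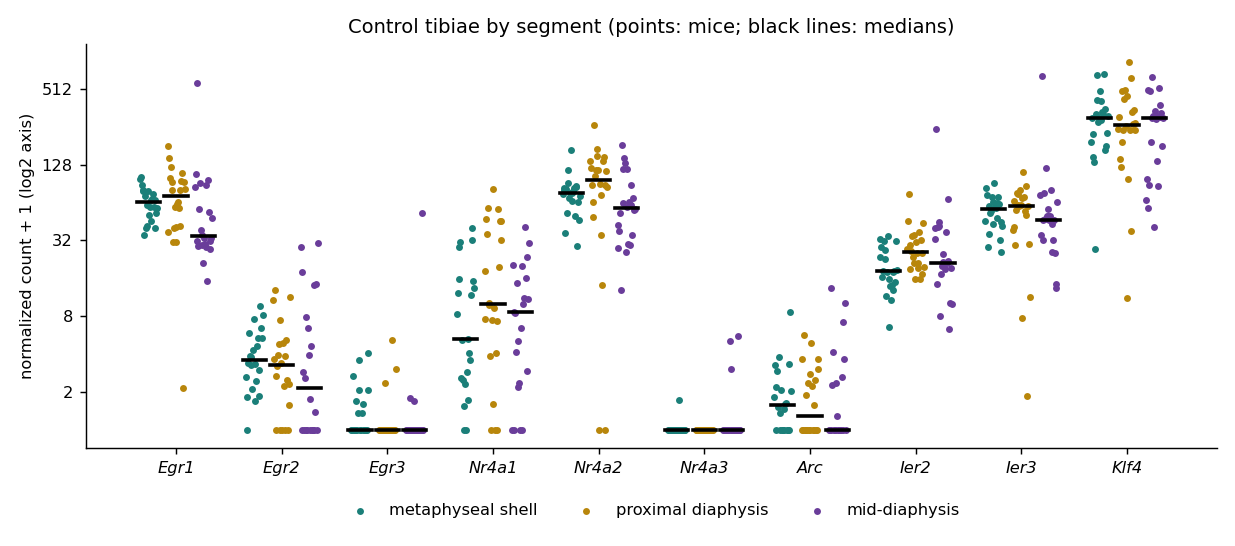
Normalized count plus 1, on a log2 axis, of the 10 genes in control tibiae, by segment; points are the 22 mice and black lines the medians. The median of Egr1 is 33.4 in the mid-diaphysis and 63.4 and 71.2 in the other 2 segments, and the points of the segments overlap for every gene.

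Control limbs of the 5 time groups also differed from each other. Mean Nr4a1 was 19.2 ± 9.90 at 1 h, 10.5 ± 12.8 at 3 h, 4.21 ± 3.48 at 24 h, 10.7 ± 10.5 at 5d and 25.1 ± 7.70 at 7d (SD, n = 5, 4, 4, 5 and 4 mice). The F test over times gave an adjusted p of 0.0192 by limma, and the call was lost without mouse 2 of the 7d group, at 0.0560. Ier3 stood at 87.6 ± 92.2, 55.9 ± 7.25, 66.2 ± 13.1, 59.5 ± 13.8 and 29.5 ± 8.16 in the same order. Its adjusted p was 0.0114 by limma, and 0.0896 without mouse 1 of the 7d group. Egr1 stood at 123 ± 84.0, 45.97 ± 6.03, 53.2 ± 22.9, 61.6 ± 16.6 and 52.9 ± 19.7, highest at 1 h, with an adjusted p of 0.0933 by limma. The 1 h values include the mid-diaphysis library of mouse 3 that stands apart. Without it the 1 h means were 20.8 ± 11.1 for Nr4a1, 48.5 ± 11.2 for Ier3 and 92.8 ± 27.9 for Egr1, so that Ier3 at 1 h then lay below the means at 3 h, 24 h and 5d. The adjusted p by limma without the 4 libraries was 0.0257, 0.00583 and 0.153 for Nr4a1, Ier3 and Egr1. With edgeR 5 members passed, Egr1 at 0.00907, Nr4a1 at 0.0338, Nr4a2 at 0.0425, Arc at 0.0433 and Ier2 at 0.0473, while Ier3 did not, at 0.0697. Of all genes, 21.5% passed this test with limma against 2 of the 8 members. The share of all genes passing with edgeR is not given here, so its 5 calls have no such comparison. Each time is a separate set of mice, so time and any shared handling of a set cannot be told apart.

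By the per-mouse average of loaded minus control over 22 mice, Egr1 was most like Setd4 and Fosb (Pearson r = 0.658 for both), then Srsf6 at 0.609, Epg5 at 0.606 and Arc at 0.604 among 13048 genes. For Nr4a1 the closest were Snai1 at 0.821, Smim11 at 0.812, Edem2 at 0.775, Ywhaq at 0.772 and Cnot8 at 0.762. Ier2 was closest to Myl12a at 0.845, Pdf at 0.830, Strap at 0.820, Cdc42 at 0.819 and S100a10 at 0.811. Among the members, Ier2 and Klf4 ran opposite to each other (r = -0.63), and so did Nr4a2 and Ier2 (r = -0.54), whereas Nr4a2 and Klf4 ran together (r = 0.58). These were -0.60, -0.42 and 0.49 without the 4 libraries, and the 5 genes named for each of Egr1, Nr4a1 and Ier2 had r of 0.553 to 0.642, 0.782 to 0.842 and 0.707 to 0.894. The 22 points share time groups and libraries, and these values are descriptions.

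The AP-1 family, whose Fos and Jun proteins dimerise to form another early transcription factor, had 1 of its 8 genes called at 1 h. Fosb rose from 4.32 ± 6.75 in control to 45.7 ± 23.3 in loaded limbs (SD, n = 5), in 5 of 5 mice. The log2 difference was 3.46 ± 0.38, with an adjusted p of 3.23e-06 by limma and 0.243 by edgeR. Fosb was also the gene called in the contrast of 1 h against 24 h, at 3.64 ± 0.57 (adjusted p = 0.00512 by limma). Junb stood at 70.2 ± 18.7 in control and 105.4 ± 30.1 in loaded limbs at 1 h, a log2 difference of 0.55 ± 0.33, and did not pass. Atf3 had a larger difference at 1 h, 1.54 ± 0.46, with an unadjusted p of 0.0023 by limma. It did not pass either (adjusted p = 0.999 by limma). The family had 0 calls at the other 4 times with limma, where 0, 1, 1 and 2 genes were under an unadjusted p of 0.05.

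Of 35 other early response genes 32 were tested, and 0 passed at 1 h, 3 h, 24 h or 5d with limma, where 0, 3, 2 and 3 were under an unadjusted p of 0.05. Ier5, an immediate early gene that acts with heat shock factor, rose at 7d, from 57.9 ± 6.83 in control to 104 ± 53.5 in loaded limbs (SD, n = 4). Its difference was 1.24 ± 0.21 (adjusted p = 0.00854 by limma), and 24 h against 7d gave -1.53 ± 0.30 (adjusted p = 0.0468 by limma). In control limbs 11 of these 32 differed across times with limma, beside 21.5% of all genes: Ier5, Dusp1, Klf6, Klf10, Csrnp1, Per1, Trib1, Errfi1, Cebpb, Cebpd and Cyr61.

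Upstream of these genes, 16 regulators such as MAP kinases, serum response factor and CREB were tested, and 0 passed in any comparison of loaded with control limbs averaged over segments, with 2, 2, 1, 0 and 2 under an unadjusted p of 0.05 with limma. Elk1, a partner of serum response factor, was higher in the loaded limb of every mouse at 1 h, at 32.8 ± 12.6 in control and 44.7 ± 18.8 in loaded limbs, and did not pass. In control limbs the kinases Mapk3 and Map2k2 stood higher in the shell, compared with the mid-diaphysis, by 0.75 and 0.53 on the log2 scale (adjusted p = 0.00451 and 0.0304 by limma), where 7.36% of all genes passed. The 5 partners of the Egr and Nr4a proteins, the repressors Nab1 and Nab2 and the retinoid X receptors Rxra, Rxrb and Rxrg, had 0 calls at each time with limma, with 0, 1, 0, 0 and 2 under an unadjusted p of 0.05. Rxrb of control limbs was higher in the shell, compared with the proximal diaphysis, by 0.46 ± 0.13 (adjusted p = 0.0369 by limma), where 6.46% of all genes passed.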

How the data were processed

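Cortical bone from both tibiae of 22 mice was measured in 132 libraries, 3 segments per limb. The submitters' processing notes name STAR, FastQC, DESeq2 and the build mm10; versions, the counting tool and its use of strand are not given in the sources used here. The deposited table holds 1 signal value per gene and library, a count divided by a library factor by the authors. Within 0.02 of a read, 100% of the values above 0 were whole multiples of the smallest value in their library, so the reads behind each value were recovered by division. Another 27 symbols appear as dates and were left so, and 4897 genes were at 0 throughout. No libraries were identical. Gene positions are those of GENCODE M21 on mm10; no member overlaps another annotated gene.

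Values were taken as log2(value + 1), and 13050 genes that reached 10 in 4 or more libraries entered the tests. Since a pseudocount of 1 is added, differences of sparse genes are understated. The difference of loaded minus control was formed within each mouse, in each segment and averaged over segments, and tested with limma 3.58.1 in R 4.3.3 with a trend on the mean, 5 time coefficients and a shared spread; control segments were compared within mice. F tests compared segments, with the mouse as a block by duplicateCorrelation, and times. Tests were two-sided, adjusted by Benjamini-Hochberg over all genes kept within each comparison, at a threshold of 0.05. edgeR 4.0.16 (quasi-likelihood, TMM) was run on the recovered reads as an alternative, with reads summed over segments for the averages. The test was checked on simulated data.

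Limbs and segments are paired because they come from the same mouse, per the labels' protocols. Deviations from the group means correlated at a median of 0.0596 between the limbs of a mouse (66 pairs) and at -0.0232 between mice of a time (228 pairs). The counting error is limited by the depth, 290325 to 5410458 reads with those of Rn45s included. A value of 0 allows up to 3 reads, a limit that covers counting error only. Non-overlap was counted over 13048 genes, leaving out 2 rows that repeat a symbol. The members, the lists and the tests were chosen with earlier results of these data known. Named genes outside the members were, per list, up to 6 genes past the threshold, or those with the largest difference at 1 h among genes with 1 sign in every mouse. Atf3 was named beside these for its difference at 1 h. The other early response genes called in control limbs across times were all named. For likeness, the 5 genes with the highest correlation to Egr1, Nr4a1 and Ier2 were named. Alternatives were 2 other pseudocounts, no filter or a mean of at least 50, upper-quartile scaling, no replicate block, 1 fit of all libraries, leaving out the 4 libraries that stand apart, muscle and erythroid covariates, edgeR, and leaving out each mouse.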

Additional observations from a re-analysis of the deposited data

Results flagged for a closer look

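Egr1 had opposite signs at different times after a single bout. The loaded limb was higher in every mouse at 1 h (mean 1.46) and lower in every mouse at 24 h (mean -0.53), a difference of 1.99 on the log2 scale that did not pass when tested (adjusted p = 0.159 by limma). At 3 h it was higher in every mouse (0.81), 1.33 above the value at 24 h, and that difference was not tested on its own. Over all 5 times the Egr1 response differed, with an adjusted p of 0.0384 by limma's F test. Klf4 was higher in every mouse at 3 h (1.07) and lower in every mouse at 7d (-0.51), a difference of 1.58 that was not tested on its own.

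Single mice lay far from the others of their group in 11 of 160 combinations of gene, segment and time, while about 1 in 20 would be set apart by chance. That rate is for continuous values and does not hold for sparse genes with many values at 0. All values are log2 loaded minus control. For Klf4 in the shell at 3 h mouse 4 stood at 2.28, the others between -0.01 and 0.24. In the proximal diaphysis at 1 h, Klf4 of mouse 5 stood at -1.24, against 0.37 to 0.90, and this is the mouse whose loaded proximal piece was also low in Egr1. Nr4a1 of mouse 3 in the proximal diaphysis at 3 h was -3.25, against -1.08 to -0.67, and that of mouse 4 at 24 h was 2.78, against -1.94 to -1.62. The -3.25 rests on 24 reads in a control library of only 363663 reads and 9 in the loaded one. The 2.78 rests on 4 reads in the loaded and 0 in the control limb. For Nr4a2, mouse 5 in the shell at 1 h stood at -0.99, against 0.50 to 0.87. Mouse 1 in the mid-diaphysis at 5d stood at -0.0065 for Nr4a2, against -2.25 to -1.69, where mice 4 and 5 had loaded libraries that stand apart. Egr2 of mouse 4 in the shell at 24 h was 1.27, against -1.01 to -0.67. Arc of mouse 1 at 24 h was -0.91 in the proximal diaphysis, against 0 to 0.07, and -2.05 in the mid-diaphysis, where the others were at 0. These 2 Arc values rest on 2 and 4 reads in the control limb, and the other mice had no Arc read in either mid-diaphysis. Ier2 of mouse 2 in the shell at 1 h was 0.62, against 0.02 to 0.19, and its average over segments in mouse 4 at 3 h was -0.50, against 0.25 to 0.40.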

How the results depend on the processing

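The call of Egr1 at 1 h, the 1 member called on the average over segments, went to 0 members with a pseudocount of 0.5, with no filter, with a filter at a mean of 50, with upper-quartile scaling, in 1 fit of all libraries and with edgeR; the difference itself stayed between 1.41 and 1.47. With no replicate block, where the pairing within a mouse is not used, 0 members were called, and the adjusted p of Egr1 was 0.999. Leaving out 1 mouse at a time gave 0 to 1 members. In 1 fit of all libraries, where the spread is shared by all segments, 1 member passed in the mid-diaphysis at 3 h (Arc) and 1 at 7d (Egr1). The F test over times called 1 member, 0 with no filter, upper-quartile scaling or edgeR, and 0 to 2 when 1 mouse was left out; the contrast of 1 h against 24 h gave 0 to 1. Control shell minus mid-diaphysis went from 0 to 2 members with upper-quartile scaling. Control shell minus proximal diaphysis went from 0 to 2 with a pseudocount of 5 and to 1 with no filter (Ier2, adjusted p = 0.0425), and gave 0 to 1 when 1 mouse was left out. Control limbs across times gave 1 member with no filter, 1 with a filter at a mean of 50 and 5 with edgeR, against 2, and 1 to 3 when 1 mouse was left out. The F test between segments at 7d gave 0 to 1 when 1 mouse was left out. Klf4 in the shell at 24 h ran from -0.017 to 2.08 when 1 mouse was left out, and changed sign without mouse 1 of that group. The causes of these changes were not tested. The edgeR form of the F test between segments was not run. Depth limits Egr3, Nr4a3, Arc and Egr2, whose values rest on a few reads per library. Among the values of single genes, the other alternatives kept direction and side of the threshold in 362 cases, and leaving out a mouse did so in 876. In 12 and 23 cases a call was lost, and in 5 and 2 it was gained. Most of these values were not called in the main test, so the 362 and 876 say little about how stable a call is. All lost calls were those of Egr1 at 1 h and over times, and of Nr4a1 and Ier3 in control limbs across times.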
